A study of Homo sapiens with 28 samples.

Results

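The 35 genes described here encode machinery of endoplasmic reticulum (ER)-associated degradation (ERAD). They were taken by gene symbol from a list of pathway genes, and each had a row among the 25369 genes of the exon-count tables. The rule itself used no measured value, but the list was chosen with earlier results of these data known. Of the 35, 34 were among the 14314 genes that passed the filter on low counts and were tested. The exception was RNF5. Reads per gene were counted in 28 RNA-seq libraries of LNCaP cells, an established human line from a metastatic prostate cancer, in 7 groups of 4 libraries. Each group received an siRNA, and after 2 days a treatment of 18 h. TM PERKi siCtrl cells carried the non-targeting siRNA and were given tunicamycin (TM) at 2.5 µg/mL together with 100 nM of GSK2606414, an inhibitor of the kinase PERK. TM siPERK-1 and TM siPERK-3 cells received tunicamycin at that dose after an oligo each against EIF2AK3, the gene of PERK. TM siATF4-2 and TM siATF4-3 cells received it after an oligo each against ATF4. TM siCtrl cells carried the non-targeting siRNA and received tunicamycin alone, and DMSO siCtrl cells carried the same siRNA and received only the solvent. TM siCtrl, the group against which inhibitor and siRNAs were mainly read, was therefore itself under ER stress.

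ERAD removes proteins that fail to fold in the ER. Mannosidases trim the glycan of a misfolded glycoprotein, lectins read the trimmed glycan, and the ubiquitin ligase SYVN1 (HRD1) with its partner SEL1L moves the protein through the membrane and marks it with ubiquitin, after which the ATPase p97 pulls it into the cytosol for the proteasome. Tunicamycin prevents N-linked glycans from being attached, which causes misfolding, and cells answer through the sensors IRE1, ATF6 and PERK. The IRE1 product XBP1 and ATF6 are known activators of ERAD genes, whereas PERK phosphorylates eIF2α, slows translation and allows ATF4 to be made.

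Library totals ran from 10794637 to 17253801 counts. Levels are CPM, counts set against the library total as scaled by the TMM method, and changes are log2 fold changes ± standard error from edgeR's quasi-likelihood test, called at a Benjamini-Hochberg adjusted p under 0.05 over the 14314 genes. EIF2AK3 averaged 24.6 ± 3.996 CPM in TM siPERK-1 and 21.5 ± 2.14 CPM in TM siPERK-3, against 89.2 ± 6.51 CPM in TM siCtrl (SD, n = 4 each). ATF4 averaged 237 ± 82.4 CPM in TM siATF4-2 and 114 ± 19.0 CPM in TM siATF4-3, against 1511 ± 37.4 CPM in TM siCtrl (SD, n = 4 each). The luminal prostate markers (9 of 9 tested, KLK3 among them) summed to between 2694 and 7260 CPM per library. By contrast, summed basal markers stayed at or under 1.49 CPM and summed leukocyte markers at or under 1.67 CPM, and the defining markers of the labelled luminal type were all present. Summed fibroblast markers reached 14.1 to 40.4 CPM and endothelial markers 9.71 to 19.0 CPM, and 1 of 3 basal and 1 of 5 fibroblast markers were at 0 in every library. In these bulk libraries, more RNA per cell and more cells making it cannot be told apart.

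The summed level of the ERAD genes was higher with tunicamycin than without, higher still when PERK was inhibited or its mRNA lowered, and lower than with tunicamycin alone when ATF4 mRNA was lowered. Summed over the 35 genes, the level was 10822 ± 120.1 CPM in TM PERKi siCtrl, 8513 ± 208 CPM in TM siPERK-1 and 8907 ± 349 CPM in TM siPERK-3 (SD, n = 4 each). It was 5699.8 ± 264 CPM in TM siATF4-2 and 4861 ± 86.9 CPM in TM siATF4-3, against 7155 ± 86.6 CPM in TM siCtrl and 3232 ± 48.1 CPM in DMSO siCtrl (SD, n = 4 each). Apart from the siPERK pair, whose ranges of 8263 to 8769 and 8413 to 9214 CPM overlapped, no libraries of different groups overlapped in this sum. The sum leans on a few abundant transcripts. HERPUD1 supplied 17.1% of it in TM siCtrl and 4.29% in DMSO siCtrl, while VCP supplied 11.4% in TM siCtrl and 18.1% in DMSO siCtrl. SEL1L supplied 15.6% in TM siPERK-1 and 16.4% in TM siPERK-3, against 10.6% in TM siCtrl. The higher sum with PERK mRNA lowered rested largely on these 3 genes. Without them, a split made after the data were seen, the sum of the other 32 was 5153 ± 96.6 CPM in TM PERKi siCtrl, 4412 ± 57.2 CPM in TM siPERK-1 and 4549 ± 72.9 CPM in TM siPERK-3, against 4351 ± 54.3 CPM in TM siCtrl (SD, n = 4 each). The TM siPERK-1 libraries then overlapped those of TM siCtrl, and the TM siPERK-3 libraries lay just above them. Of the 34 tested genes, 18 had their highest group mean in TM PERKi siCtrl and 26 had their lowest in DMSO siCtrl. The same was not counted over all tested genes, so these counts are not shown to be particular to the set.

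Gene by gene, tunicamycin raised 27 of the 34 tested ERAD genes and lowered 4 (TM siCtrl against DMSO siCtrl), where 34.3% of all tested genes were called higher and 34.7% lower. The median log2 change of the members was 0.59 and that of all tested genes 0.0066. The PERK inhibitor added to tunicamycin raised 17 and lowered 5 of the 34 relative to TM siCtrl, against 18.2% higher and 17.5% lower among all genes, with a member median of 0.15. The PERK siRNAs moved fewer members. TM siPERK-1 had 8 members higher and 9 lower than TM siCtrl (13.1% and 13.3% of all genes), and TM siPERK-3 had 9 higher and 6 lower (13.1% and 13.7% of all genes). Their member medians were 0.015 and 0.059. Lowering ATF4 lowered most of the set. TM siATF4-2 had 7 members higher and 22 lower than TM siCtrl (28.4% and 27.2% of all genes, member median -0.25), and TM siATF4-3 had 8 higher and 22 lower (31.2% and 30.7% of all genes, member median -0.42). The shares of members called higher with the ATF4 siRNAs, 20.6% and 23.5%, and called lower with the inhibitor, 14.7%, did not exceed those of all genes. The 8 higher calls became 5 when TM siATF4-3 replicate 2 was left out. These 5 contrasts share the TM siCtrl libraries, so their values stand side by side and are not independent of each other, nor of the tunicamycin contrast.

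**Figure D1:**
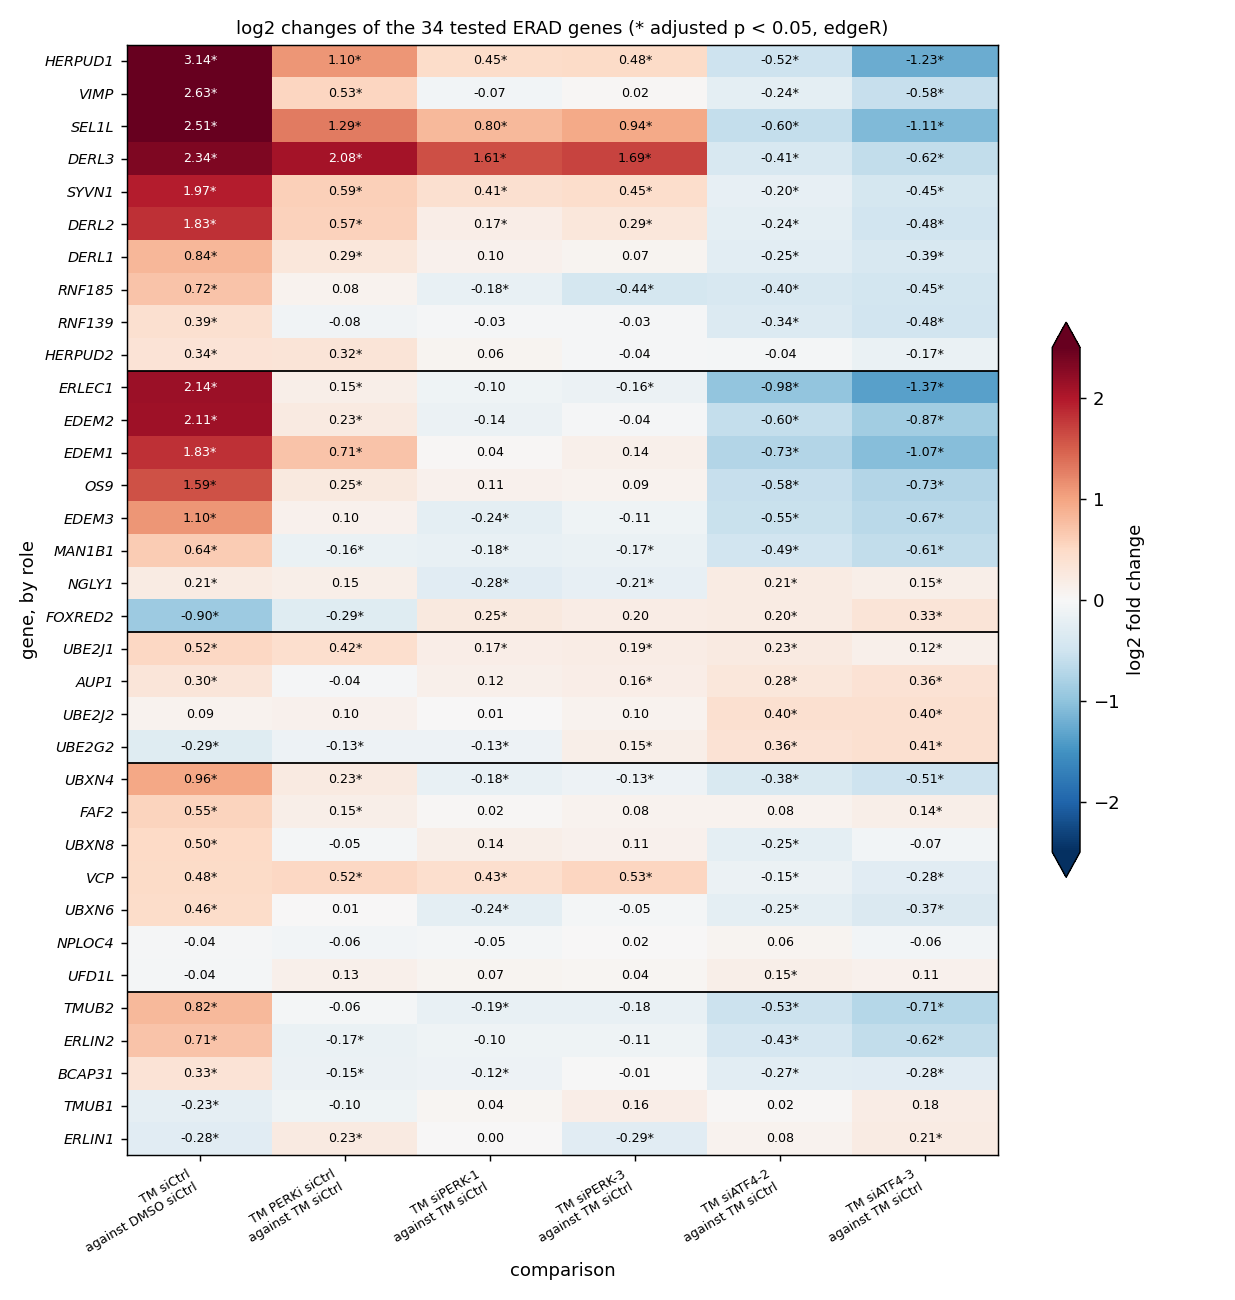
Log2 fold changes (colour, and printed in each cell) of the 34 tested ERAD genes, in rows grouped by role, for the 6 comparisons with a control group, in columns, with * at an adjusted p under 0.05. The tunicamycin column runs from -0.90 for FOXRED2 to 3.14 for HERPUD1, and the core and glycan rows are mostly blue in the ATF4 siRNA columns while the ubiquitin conjugation rows are not.

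HERPUD1, whose change with tunicamycin was the largest in the set, and VCP and UBE2J1 are the members whose promoters held any of the stress motifs searched. The search covered the 250 bases before the start of 27 members with a RefSeq promoter (GRCh38.p14), on both strands, for ERSE (CCAAT, 9 bases, CCACG), ERSE-II (ATTGG, 1 base, CCACG), UPRE (TGACGTGG) and the C/EBP-ATF core (TGATG, 1 base, AAT). The deposited tables use hg19, so these positions are not comparable with theirs. The strands are printed as transcribed, with the match in capitals. In HERPUD1 (chr16:56931892-56932141, plus strand) it is an ERSE-II, 117 to 107 bases before the start. In VCP (chr9:35072626-35072875, minus strand) it is a UPRE at 189 to 182 bases, and in UBE2J1 (chr6:89352723-89352972, minus strand) a UPRE on the opposite strand at 231 to 224 bases.
HERPUD1: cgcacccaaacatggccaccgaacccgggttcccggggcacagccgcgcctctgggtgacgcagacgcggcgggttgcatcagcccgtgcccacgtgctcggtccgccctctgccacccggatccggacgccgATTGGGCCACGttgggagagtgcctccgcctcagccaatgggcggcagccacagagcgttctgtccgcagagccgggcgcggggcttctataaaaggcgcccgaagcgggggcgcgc
VCP: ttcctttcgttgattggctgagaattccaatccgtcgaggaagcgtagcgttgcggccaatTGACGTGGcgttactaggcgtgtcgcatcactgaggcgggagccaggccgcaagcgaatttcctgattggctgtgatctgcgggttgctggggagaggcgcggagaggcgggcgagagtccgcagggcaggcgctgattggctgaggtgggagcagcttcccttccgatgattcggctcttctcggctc
UBE2J1: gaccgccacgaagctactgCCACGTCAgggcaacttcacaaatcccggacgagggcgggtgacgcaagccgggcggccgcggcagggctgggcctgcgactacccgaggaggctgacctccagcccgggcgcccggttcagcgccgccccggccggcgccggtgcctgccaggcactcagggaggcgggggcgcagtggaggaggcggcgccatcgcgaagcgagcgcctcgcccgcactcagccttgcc
Among 35116 promoters of the same length, 0.0513% held an ERSE-II and 0.612% a UPRE. ERSE occurred in 0.074% and the C/EBP-ATF core in 0.888% of all promoters, and neither exact pattern occurred in the 27 member windows. Only exact matches were searched, so variants of these motifs are not excluded. The HERPUD1 window holds gttgcatca, which read on the opposite strand differs from the searched C/EBP-ATF core only in its last base. It also holds ccaatgggcggcagccaca, which differs from ERSE only in its last base. How often such near matches occur was not counted. A match describes letters and does not show binding. DERL1, DERL3, UFD1L, RNF139, RNF185, UBXN8, ERLIN1 and ERLIN2 were not searched.

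The retrotranslocation core and the ER membrane ligases moved largely together. All 10 tested members rose with tunicamycin (median log2 change 1.90), against 34.3% of all genes. With the inhibitor 8 of the 10 rose further and none fell (18.2% and 17.5% of all genes). With each PERK siRNA 5 rose, against 13.1% of all genes. In each, 1, RNF185, fell, a share of 10% that was under the 13.3% and 13.7% of all genes. With the ATF4 siRNAs 9 of 10 fell in TM siATF4-2 and 10 of 10 in TM siATF4-3 (27.2% and 30.7% of all genes). In both, none of the 10 rose (28.4% and 31.2% of all genes).

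HERPUD1 (chr16:56966002-56977793, plus strand, hg19) encodes a ubiquitin-like membrane protein of the SYVN1 complex. It had 2592, 2697, 2605 and 2645 CPM in the TM PERKi siCtrl libraries, 1725, 1647, 1786 and 1548 CPM in TM siPERK-1 and 1717, 1777, 1828 and 1528 CPM in TM siPERK-3. It had 907, 872, 766 and 886 CPM in TM siATF4-2 and 554, 515, 488 and 528 CPM in TM siATF4-3, against 1262, 1246, 1281 and 1116 CPM in TM siCtrl and 129.9, 125, 145 and 155 CPM in DMSO siCtrl. Every library of the inhibitor group lay above every PERK siRNA library, these above TM siCtrl, TM siCtrl above TM siATF4-2, that above TM siATF4-3, and DMSO siCtrl lay lowest. The log2 change with tunicamycin was 3.14 ± 0.067, or 8.84-fold (adjusted p = 5.63e-29). Relative to TM siCtrl the log2 change was 1.103 ± 0.062 with the inhibitor, 0.45 ± 0.061 and 0.48 ± 0.061 with siPERK-1 and siPERK-3, and -0.52 ± 0.061 and -1.23 ± 0.062 with siATF4-2 and siATF4-3. All 5 were called, with adjusted p from 6.91e-18 to 9.61e-07. The oligos against ATF4 differed from each other, TM siATF4-2 standing 0.72 ± 0.062 above TM siATF4-3 on the log2 scale (adjusted p = 3.04e-10).

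SEL1L (chr14:81937891-82000205, minus strand, hg19), the adaptor that holds SYVN1 and the lectins together, followed the same order. It had 1713, 1796, 1882 and 2048 CPM in TM PERKi siCtrl, 1318, 1379, 1389.5 and 1218 CPM in TM siPERK-1 and 1482, 1524, 1593 and 1247 CPM in TM siPERK-3. Its values were 494, 531, 418 and 563 CPM in TM siATF4-2 and 359, 335, 331 and 381 CPM in TM siATF4-3, against 678, 766, 760.2 and 839 CPM in TM siCtrl and 126, 130.04, 137 and 140.1 CPM in DMSO siCtrl. Only the siPERK pair overlapped. SEL1L rose by 2.51 ± 0.089 on the log2 scale with tunicamycin (5.71-fold, adjusted p = 7.75e-19). Its log2 change relative to TM siCtrl was 1.29 ± 0.084 with the inhibitor, 0.80 ± 0.083 and 0.94 ± 0.083 with siPERK-1 and siPERK-3, and -0.60 ± 0.083 and -1.11 ± 0.084 with siATF4-2 and siATF4-3, all called.

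SYVN1 (chr11:64894751-64902003, minus strand, hg19) is the ligase itself, and 91 bases of its exons overlap MRPL49 on the opposite strand. SYVN1 had 442, 429.5, 416 and 447 CPM in TM PERKi siCtrl, 390.5, 366, 399 and 371 CPM in TM siPERK-1 and 405, 389.9, 401 and 373 CPM in TM siPERK-3. It stood at 283, 235, 243 and 243 CPM in TM siATF4-2 and 213, 207, 204 and 221 CPM in TM siATF4-3, against 312, 268, 296 and 275 CPM in TM siCtrl and 74.3, 73.0, 76.9 and 69.7 CPM in DMSO siCtrl. TM siATF4-2 overlapped TM siCtrl in part, whereas TM siATF4-3 lay below it. Its rise with tunicamycin was 3.92-fold (log2 1.97 ± 0.053, adjusted p = 1.04e-29). Changes relative to TM siCtrl were smaller than those of SEL1L in each group, with log2 values of 0.59 ± 0.05 for the inhibitor, 0.41 ± 0.05 and 0.45 ± 0.05 for siPERK-1 and siPERK-3, and -0.20 ± 0.051 and -0.45 ± 0.051 for siATF4-2 and siATF4-3. The difference between the genes was not tested.

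DERL3 (chr22:24176690-24181199, minus strand, hg19; 16 exon bases overlap SMARCB1 on the opposite strand) encodes the derlin found mostly in secretory tissue, a membrane protein of the retrotranslocation site. It was the scarcest tested member without stress, with 59 to 138 counts per DMSO siCtrl library. DERL3 had 112, 94.4, 92.0 and 132 CPM in TM PERKi siCtrl, 79.7, 63.8, 78.1 and 89.0 CPM in TM siPERK-1 and 84.9, 81.4, 75.7 and 86.4 CPM in TM siPERK-3. In TM siATF4-2 it had 20.1, 15.6, 20.2 and 21.3 CPM and in TM siATF4-3 15.6, 15.2, 14.9 and 20.8 CPM, against 27.8, 23.7, 24.9 and 25.6 CPM in TM siCtrl and 3.24, 4.35, 5.14 and 7.29 CPM in DMSO siCtrl. The 3 groups with PERK inhibited or lowered stood far above the other libraries, and the ATF4 siRNA groups overlapped each other just below TM siCtrl. Tunicamycin alone raised DERL3 by 2.34 ± 0.19 on the log2 scale (5.06-fold, adjusted p = 8.09e-11). Added PERK inhibition raised it by a further 2.08 ± 0.14 (adjusted p = 4.06e-11), siPERK-1 by 1.61 ± 0.14 (adjusted p = 9.35e-09) and siPERK-3 by 1.69 ± 0.14 (adjusted p = 3.98e-09), the largest member changes in each of those contrasts. The log2 change was -0.41 ± 0.16 with siATF4-2 (adjusted p = 0.0332) and -0.62 ± 0.16 with siATF4-3 (adjusted p = 0.0023). The siATF4-2 call was lost without TM siCtrl replicate 1 or 4 or TM siATF4-2 replicate 2, where its log2 change was -0.42 to -0.31 and its adjusted p 0.051 to 0.122.

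DERL1 and DERL2, the more widely made derlins, rose 1.79-fold and 3.54-fold with tunicamycin. DERL2 averaged 197 ± 6.07 CPM in TM PERKi siCtrl, 149 ± 2.56 in TM siPERK-1, 162 ± 10.0 in TM siPERK-3, 112 ± 8.60 in TM siATF4-2 and 94.999 ± 5.33 in TM siATF4-3, against 132 ± 1.99 CPM in TM siCtrl and 37.3 ± 3.06 CPM in DMSO siCtrl (SD, n = 4 each). Its log2 change was 0.57 with the inhibitor, 0.17 and 0.29 with the PERK siRNAs and -0.24 and -0.48 with the ATF4 siRNAs, all called. For DERL1 the inhibitor gave a log2 change of 0.29 ± 0.048 (called), whereas siPERK-1 and siPERK-3 gave 0.10 ± 0.048 and 0.073 ± 0.049 (adjusted p = 0.106 and 0.284). DERL1 fell by 0.25 and 0.39 on the log2 scale with siATF4-2 and siATF4-3.

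VIMP (chr15:101811114-101817725, minus strand, hg19), the selenoprotein SELENOS that links derlins to p97, answered to the inhibitor but not detectably to the PERK siRNAs. It had 374, 379, 400.0 and 367 CPM in TM PERKi siCtrl, 253, 249.95, 264 and 239.8 CPM in TM siPERK-1 and 283, 273, 271 and 243 CPM in TM siPERK-3. Its levels were 228, 239, 201 and 226 CPM in TM siATF4-2 and 182, 188, 171 and 162 CPM in TM siATF4-3, against 256, 279, 262 and 257 CPM in TM siCtrl and 41.6, 40.9, 44.0 and 43.8 CPM in DMSO siCtrl. The PERK siRNA libraries overlapped TM siCtrl, the inhibitor libraries lay above all others, and both ATF4 siRNA groups lay below TM siCtrl. VIMP rose 6.19-fold with tunicamycin (log2 2.63 ± 0.056, adjusted p = 5.25e-33), second in the set to HERPUD1. The log2 change was 0.53 ± 0.051 with the inhibitor (adjusted p = 5.69e-11), and the 95% interval was -0.17 to 0.036 with siPERK-1 and -0.083 to 0.12 with siPERK-3. With siATF4-2 and siATF4-3 it was -0.24 ± 0.051 and -0.58 ± 0.052, both called.

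The remaining ligases and the second HERPUD gene changed less. RNF185 rose 1.65-fold with tunicamycin and was the core member that fell with the PERK siRNAs, by 0.18 (siPERK-1) and 0.44 (siPERK-3) on the log2 scale. It averaged 92.2 ± 2.85 CPM in TM PERKi siCtrl, 76.8 ± 7.23 in TM siPERK-1 and 64.2 ± 3.41 in TM siPERK-3, against 87.2 ± 5.17 CPM in TM siCtrl (SD, n = 4 each). The siPERK-1 call of RNF185 was lost without TM siPERK-1 replicate 1 (log2 -0.13, adjusted p = 0.0961). RNF139, a ligase also known as TRC8 (125 exon bases overlap TATDN1 on the opposite strand), rose 1.31-fold with tunicamycin and fell by 0.34 and 0.48 with siATF4-2 and siATF4-3. HERPUD2, the paralogue of HERPUD1, rose 1.26-fold with tunicamycin and by 0.32 ± 0.067 on the log2 scale with the inhibitor. Its log2 change was -0.17 ± 0.069 with siATF4-3 (adjusted p = 0.0353), a call lost without TM siCtrl replicate 1 or 2 or TM siATF4-3 replicate 2 or 4 (log2 -0.15 to -0.13, adjusted p 0.0754 to 0.125), which leaves 9 of the 10 core members lower there. RNF5 had 1 to 19 counts per library, did not pass the filter and was not tested. Its exon model lies on chromosome 6 and on 6 further contigs and shares 1064 bases with RNF5P1 on the same strand, so its low counts are uncertain.

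**Figure D2:**
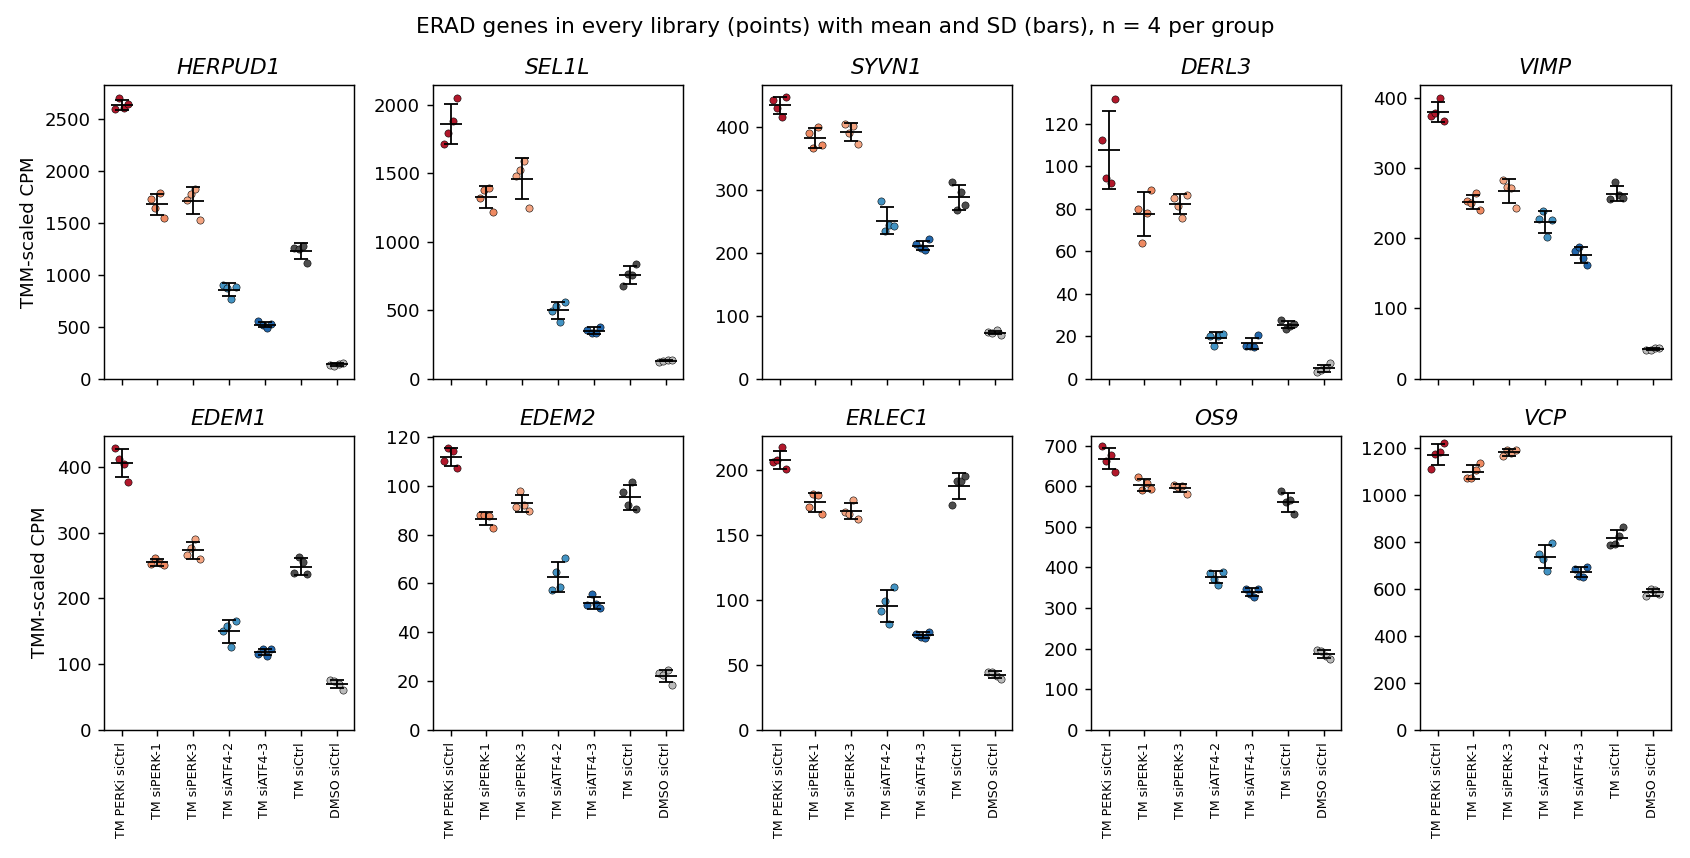
TMM-scaled CPM (y axis, linear, from 0) of 10 ERAD genes in each of the 28 libraries (points), with group mean and SD (bars, n = 4), by group on the x axis. HERPUD1, SEL1L and DERL3 are highest in TM PERKi siCtrl, lower in both siPERK groups and lower again in TM siCtrl, whereas the siPERK libraries of VIMP and EDEM1 overlap those of TM siCtrl, and all 10 genes are lowest in DMSO siCtrl.

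Glycan trimming and recognition genes also rose with tunicamycin, 7 of 8 (median log2 change 1.35), against 34.3% of all genes. The inhibitor raised 4 and lowered 2 of the 8 (18.2% and 17.5% of all genes). With siPERK-1, 1 rose and 3 fell (13.1% and 13.3% of all genes), and with siPERK-3, 0 rose and 3 fell (13.1% and 13.7% of all genes). The share higher with siPERK-1, 12.5%, did not exceed that of all genes. In the edgeR test at an unadjusted p under 0.05, 2 of the 8 were higher with siPERK-3, and DESeq2 and limma-voom called none higher. The 0 depended on the setting, as FOXRED2 was called higher in 12 of 35 alternatives, median-of-ratios scaling among them (adjusted p 0.0113 to 0.0485), and EDEM1 with only the compared groups fitted and without TM siATF4-2 replicate 3 (adjusted p 0.047 to 0.0485). With each ATF4 siRNA 6 of 8 fell, against 27.2% and 30.7% of all genes, and 2 rose, NGLY1 and FOXRED2. The share that rose, 25%, was under the 28.4% and 31.2% of all genes.

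ERLEC1 (chr2:54014068-54045956, plus strand, hg19), an ER lectin also called XTP3-B, had the deepest fall of any member when ATF4 was lowered. A 79-base stretch of its exons overlaps ASB3 on the opposite strand. ERLEC1 had 206, 208, 217 and 200.4 CPM in TM PERKi siCtrl, 172, 181, 180.4 and 166 CPM in TM siPERK-1 and 168, 166, 177 and 162 CPM in TM siPERK-3. In TM siATF4-2 it had 91.3, 99.2, 80.9 and 109.5 CPM and in TM siATF4-3 73.2, 71.3, 70.9 and 75.4 CPM, against 172, 192, 191 and 195 CPM in TM siCtrl and 44.5, 44.3, 41.6 and 39.3 CPM in DMSO siCtrl. The PERK siRNA libraries overlapped TM siCtrl, and the ATF4 siRNA groups lay between TM siCtrl and DMSO siCtrl without touching either. ERLEC1 rose 4.42-fold with tunicamycin (log2 2.14 ± 0.061, adjusted p = 4.34e-29). It fell by 0.98 with siATF4-2 (adjusted p = 3.2e-17) and by 1.37 with siATF4-3 (adjusted p = 7.46e-22) on the log2 scale. With siPERK-3 ERLEC1 changed by -0.16 ± 0.056 (adjusted p = 0.0348), a call lost without TM siCtrl replicate 2, 3 or 4 or TM siPERK-3 replicate 1, 2 or 4 (adjusted p 0.0674 to 0.0958). With the inhibitor the log2 change was 0.15 ± 0.056 (adjusted p = 0.0347), and the call was lost without TM siCtrl replicate 1 or TM PERKi siCtrl replicate 1, 2 or 3 (log2 0.11 to 0.15, adjusted p 0.0518 to 0.16).

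OS9 (chr12:58087738-58115340, plus strand, hg19) encodes the other lectin of the SEL1L complex. It had 698, 662, 676 and 635 CPM in TM PERKi siCtrl, 624, 590.2, 607 and 592 CPM in TM siPERK-1 and 603, 599, 599 and 579.7 CPM in TM siPERK-3. It had 387, 371, 357 and 389 CPM in TM siATF4-2 and 347, 335, 326 and 345 CPM in TM siATF4-3, against 588, 560.5, 565 and 530.4 CPM in TM siCtrl and 196, 193, 181 and 174 CPM in DMSO siCtrl. The TM siPERK-1 libraries lay just above TM siCtrl and the TM siPERK-3 libraries overlapped it, while both ATF4 siRNA groups lay between TM siCtrl and DMSO siCtrl. OS9 rose 3.01-fold with tunicamycin (log2 1.59 ± 0.044) and by 0.25 ± 0.042 on the log2 scale with the inhibitor, and fell by 0.58 and 0.73 with siATF4-2 and siATF4-3. With siPERK-1 and siPERK-3 its log2 change was 0.11 ± 0.042 and 0.086 ± 0.042 (adjusted p = 0.0603 and 0.135). The siPERK-1 change was called higher in 5 of 35 alternatives, with limma-voom, upper-quartile scaling and a replicate block, and without TM siCtrl replicate 1 or DMSO siCtrl replicate 4 (adjusted p 0.0194 to 0.0493).

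EDEM1 (chr3:5229359-5261650, plus strand, hg19) and EDEM2 (chr20:33703160-33735161, minus strand, hg19) belong to the mannosidase family that trims glycans of misfolded proteins. EDEM1 had 429, 412, 405 and 377 CPM in TM PERKi siCtrl, 253, 262, 254 and 250.5 CPM in TM siPERK-1 and 266, 276, 290.1 and 259 CPM in TM siPERK-3. Its libraries held 151, 158, 126 and 166 CPM in TM siATF4-2 and 115, 122, 113 and 122 CPM in TM siATF4-3, against 238, 263, 256 and 237 CPM in TM siCtrl and 75.6, 73.5, 69.2 and 60.5 CPM in DMSO siCtrl. The inhibitor libraries of EDEM1 stood well apart, and the TM siPERK-1 libraries mixed with TM siCtrl. Those of TM siPERK-3 lay above TM siCtrl except replicate 4. EDEM1 was not called with siPERK-3, except with only the compared groups fitted and without TM siATF4-2 replicate 3 (log2 0.13 to 0.14, adjusted p 0.047 to 0.0485). EDEM2 had 110.1, 116, 114 and 108 CPM in TM PERKi siCtrl, 88.2, 88.0, 87.5 and 82.8 CPM in TM siPERK-1 and 91.5, 97.9, 92.3 and 89.7 CPM in TM siPERK-3. EDEM2 levels were 57.2, 64.6, 58.7 and 70.6 CPM in TM siATF4-2 and 51.0, 55.8, 51.5 and 49.9 CPM in TM siATF4-3, against 97.6, 92.1, 102 and 90.4 CPM in TM siCtrl and 23.1, 22.3, 24.4 and 18.4 CPM in DMSO siCtrl. TM siPERK-1 libraries of EDEM2 lay just under those of TM siCtrl, a log2 change of -0.14 ± 0.059 that was not called (adjusted p = 0.0804) except with a replicate block, with only the compared groups fitted and without DMSO siCtrl replicate 4 (adjusted p 0.0398 to 0.049).

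Tunicamycin raised EDEM1 3.57-fold and EDEM2 4.33-fold. The inhibitor raised EDEM1 by 0.71 ± 0.061 on the log2 scale and EDEM2 by 0.23 ± 0.059. EDEM1 fell by 0.73 and 1.07, and EDEM2 by 0.60 and 0.87, with siATF4-2 and siATF4-3. EDEM3, the remaining EDEM gene, rose 2.15-fold with tunicamycin, fell by 0.24 with siPERK-1 and fell by 0.55 and 0.67 with siATF4-2 and siATF4-3. Its log2 change with the inhibitor was 0.10 ± 0.05 (adjusted p = 0.119). MAN1B1, the ER mannosidase that starts the trimming, rose 1.55-fold with tunicamycin and fell by 0.49 and 0.61 with the ATF4 siRNAs. It averaged 105 ± 7.36 CPM in TM siATF4-2 and 96.4 ± 1.06 CPM in TM siATF4-3, against 94.8 ± 5.47 CPM in DMSO siCtrl (SD, n = 4 each). The ATF4 siRNA groups together were not called different from DMSO siCtrl (log2 0.087 ± 0.046), which differs from them in both siRNA and tunicamycin. Without TM siATF4-2 replicate 2 that difference was called higher (log2 0.11, adjusted p = 0.029). MAN1B1 also fell with the inhibitor (log2 -0.16) and with siPERK-1 and siPERK-3 (log2 -0.18 and -0.17). The inhibitor call was lost without TM siCtrl replicate 1 or 3 or TM PERKi siCtrl replicate 4 (adjusted p 0.0503 to 0.0617), and the siPERK-3 call without TM siCtrl replicate 1 or 3 or TM siPERK-3 replicate 1 or 3 (adjusted p 0.0501 to 0.066).

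NGLY1 and FOXRED2 stood apart from this group. NGLY1, the cytosolic enzyme that strips glycans from extracted proteins, rose only 1.16-fold with tunicamycin. Its mean was 49.0 ± 2.99 CPM in TM siPERK-1, 51.6 ± 1.78 CPM in TM siPERK-3, 68.9 ± 4.74 CPM in TM siATF4-2 and 66.3 ± 2.43 CPM in TM siATF4-3, against 59.6 ± 2.32 CPM in TM siCtrl (SD, n = 4 each). NGLY1 was thus lower with the PERK siRNAs (log2 -0.28 and -0.21) and higher with the ATF4 siRNAs (log2 0.21 and 0.15). The siATF4-3 call of NGLY1 was lost with upper-quartile scaling and without TM siCtrl replicate 1, 3 or 4 or TM siATF4-3 replicate 1 or 2 (adjusted p 0.0539 to 0.084, log2 0.12 to 0.15). FOXRED2, an ER flavoprotein that binds SEL1L and OS9, was the member most lowered by tunicamycin, at 69.7 ± 3.31 CPM in TM siCtrl and 129.98 ± 9.83 CPM in DMSO siCtrl (SD, n = 4 each; log2 -0.90 ± 0.072, adjusted p = 3.41e-13). It fell further with the inhibitor, to 56.8 ± 3.52 CPM (log2 -0.29 ± 0.076), and rose with siPERK-1 (log2 0.25 ± 0.074) and siATF4-3 (log2 0.33 ± 0.074). Its call with siATF4-2 (log2 0.20 ± 0.074) was lost with upper-quartile scaling and without TM siCtrl replicate 2 or 4 or TM siATF4-2 replicate 1 or 3 (adjusted p 0.0503 to 0.0681).

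The ubiquitin conjugation genes did not follow the core with the ATF4 siRNAs, and followed it only in part with the other treatments. UBE2J1 and UBE2J2 encode membrane-anchored conjugating enzymes of the ER, UBE2G2 the soluble enzyme, and AUP1 the protein that recruits UBE2G2 to membranes. With tunicamycin UBE2J1 and AUP1 rose, UBE2G2 fell and UBE2J2 was not called. All 4 were higher than in TM siCtrl with each ATF4 siRNA, against 28.4% and 31.2% of all genes. None of the 4 fell there, where 27.2% and 30.7% of all genes were called lower. With so few genes, the lack of a fall does not set this role group apart. UBE2G2 averaged 91.9 ± 2.14 CPM in TM siATF4-2 and 95.2 ± 2.12 CPM in TM siATF4-3, against 71.7 ± 1.18 CPM in TM siCtrl and 87.8 ± 4.89 CPM in DMSO siCtrl (SD, n = 4 each). Its libraries ranged over 89.2 to 94.2 and 93.2 to 98.2 CPM with the ATF4 siRNAs, all above the 70.8 to 73.4 CPM of TM siCtrl.

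UBE2G2 fell by 0.29 on the log2 scale with tunicamycin (adjusted p = 3.77e-07) and rose by 0.36 ± 0.046 and 0.41 ± 0.046 with siATF4-2 and siATF4-3 (adjusted p = 1.54e-08 and 5.22e-10). The PERK siRNAs moved it in opposite directions, by -0.13 ± 0.047 with siPERK-1 and 0.15 ± 0.047 with siPERK-3, and the oligos differed by -0.28 ± 0.048 (adjusted p = 8.69e-05). The siPERK-1 call of UBE2G2 was the weaker, and among single libraries was lost without TM siCtrl replicate 2, 3 or 4 or TM siPERK-1 replicate 3 or 4 (log2 -0.14 to -0.10, adjusted p 0.0529 to 0.144). UBE2J2 averaged 82.3 ± 6.98 CPM in TM siATF4-2 and 82.7 ± 4.11 CPM in TM siATF4-3, against 62.5 ± 2.70 CPM in TM siCtrl (SD, n = 4 each), and its log2 change was 0.40 ± 0.055 and 0.40 ± 0.055. AUP1, of whose exons 363 bases overlap HTRA2 on the opposite strand, changed by 0.28 ± 0.05 and 0.36 ± 0.05. UBE2J1 rose with tunicamycin (1.44-fold), with the inhibitor (log2 0.42 ± 0.053), with siPERK-1 and siPERK-3 (log2 0.17 and 0.19) and with siATF4-2 (log2 0.23 ± 0.053). The siPERK-1 call of UBE2J1 was lost without TM siCtrl replicate 3 (adjusted p = 0.0535). With siATF4-3 the log2 change of UBE2J1 was 0.12 ± 0.053 (adjusted p = 0.0397). That call did not survive upper-quartile scaling, the lack of a filter, or the removal of TM siCtrl replicate 1, 3 or 4 or TM siATF4-3 replicate 1 or 2 (log2 0.09 to 0.13, adjusted p 0.0552 to 0.174). With the inhibitor UBE2G2 fell (log2 -0.13 ± 0.047), a call lost without TM siCtrl replicate 4 or TM PERKi siCtrl replicate 2 or 3 (adjusted p 0.0591 to 0.113). AUP1 rose with siPERK-3 (log2 0.16 ± 0.05), a call lost without TM siCtrl replicate 2 or TM siPERK-3 replicate 3 (adjusted p 0.0518 to 0.0563).

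Of p97 and its adaptors, 5 of 7 rose with tunicamycin and none fell (median log2 change 0.48), against 34.3% and 34.7% of all genes. VCP (chr9:35056065-35072739, minus strand, hg19) is the gene of p97. VCP had 1112, 1177, 1183 and 1221 CPM in TM PERKi siCtrl, 1075, 1074, 1107 and 1136 CPM in TM siPERK-1 and 1166, 1195, 1179 and 1194 CPM in TM siPERK-3. It had 748, 726, 678 and 798 CPM in TM siATF4-2 and 683, 657, 651 and 694 CPM in TM siATF4-3, against 787, 792, 827 and 863 CPM in TM siCtrl and 570.4, 599, 596 and 578 CPM in DMSO siCtrl. The inhibitor libraries overlapped those of each PERK siRNA, TM siPERK-1 lay below TM siPERK-3, and all 3 groups stood above the rest, while TM siATF4-2 overlapped TM siCtrl. The log2 change of VCP was 0.48 ± 0.043 with tunicamycin (adjusted p = 3.89e-13). Relative to TM siCtrl it was 0.52 ± 0.042 with the inhibitor, 0.43 ± 0.042 with siPERK-1 and 0.53 ± 0.042 with siPERK-3, with adjusted p of 6.7e-13, 4.12e-10 and 1.02e-12. VCP fell by 0.15 and 0.28 with siATF4-2 and siATF4-3.

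UBXN4, FAF2, UBXN8 and UBXN6, UBX-domain proteins that bind p97, rose 1.95-fold, 1.47-fold, 1.41-fold and 1.37-fold with tunicamycin. UBXN4 averaged 295 ± 7.97 CPM in TM PERKi siCtrl, 221 ± 8.03 in TM siPERK-1, 229 ± 6.25 in TM siPERK-3, 192 ± 15.9 in TM siATF4-2 and 176 ± 3.91 in TM siATF4-3, against 250.4 ± 13.9 CPM in TM siCtrl and 129 ± 4.88 CPM in DMSO siCtrl (SD, n = 4 each). It rose with the inhibitor (log2 0.23) and fell with siPERK-1 and siPERK-3 (log2 -0.18 and -0.13) and with siATF4-2 and siATF4-3 (log2 -0.38 and -0.51). UBXN6 fell with siPERK-1 (log2 -0.24) and with siATF4-2 and siATF4-3 (log2 -0.25 and -0.37). The siPERK-3 call of UBXN4 was lost without TM siCtrl replicate 2 or 4 or TM siPERK-3 replicate 2, 3 or 4 (adjusted p 0.0643 to 0.147). UBXN8 fell with siATF4-2 (log2 -0.25 ± 0.061) and was not called with siATF4-3 (log2 -0.074 ± 0.061). FAF2 was called lower in none of the 5 contrasts with TM siCtrl and rose with the inhibitor (log2 0.15) and siATF4-3 (log2 0.14). UFD1L and NPLOC4, the partners that form the substrate-binding adaptor of p97, were not called with tunicamycin. NPLOC4 averaged 113 ± 3.83 CPM in TM siCtrl and 116 ± 5.60 CPM in DMSO siCtrl (SD, n = 4 each), with a 95% interval of -0.12 to 0.052 for the log2 change, and UFD1L averaged 51.4 ± 2.75 CPM in TM siCtrl and 52.9 ± 3.54 CPM in DMSO siCtrl, with an interval of -0.15 to 0.067. Relative to TM siCtrl, NPLOC4 was called in none of the 5 contrasts, and UFD1L with siATF4-2 (log2 0.15 ± 0.054), a call lost with upper-quartile scaling and without TM siCtrl replicate 1 (adjusted p 0.0698 to 0.0731). With the inhibitor UFD1L had a log2 change of 0.13 ± 0.054 (adjusted p = 0.0614) and was called higher in 5 of 35 alternatives, DESeq2 among them (adjusted p 0.0281 to 0.0384).

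Other membrane factors were mixed. TMUB2, ERLIN2 and BCAP31 rose with tunicamycin (1.76-fold, 1.64-fold and 1.26-fold) and fell with both ATF4 siRNAs. ERLIN2 and ERLIN1 are partner proteins that bind activated IP3 receptors, and they went in opposite directions with tunicamycin. ERLIN2 averaged 156 ± 9.57 CPM in TM siATF4-2 and 137 ± 4.93 CPM in TM siATF4-3, against 209 ± 5.79 CPM in TM siCtrl and 128 ± 1.46 CPM in DMSO siCtrl (SD, n = 4 each). ERLIN1 averaged 26.3 ± 1.98 CPM in TM siATF4-2 and 28.8 ± 2.25 CPM in TM siATF4-3, against 24.9 ± 1.79 CPM in TM siCtrl and 30.3 ± 1.11 CPM in DMSO siCtrl (SD, n = 4 each). The log2 change with tunicamycin was 0.71 ± 0.044 for ERLIN2 and -0.28 ± 0.07 for ERLIN1 (adjusted p = 7.58e-18 and 0.000501). BCAP31, an ER membrane chaperone, fell by 0.27 and 0.28 with siATF4-2 and siATF4-3, and TMUB2, a ubiquitin-like membrane protein, by 0.53 and 0.71. TMUB1, its relative, had a log2 change of -0.23 ± 0.084 with tunicamycin (adjusted p = 0.0162), which was not called without DMSO siCtrl replicate 2 or TM siCtrl replicate 2 (log2 -0.20 to -0.18, adjusted p 0.0579 to 0.0742). TMUB1 was called in none of the 5 contrasts with TM siCtrl, although with siATF4-3 (log2 0.18 ± 0.087) it was called higher in 4 of 35 alternatives (adjusted p 0.0183 to 0.0452). Relative to TM siCtrl, ERLIN1 rose with the inhibitor (log2 0.23 ± 0.072) and fell with siPERK-3 (log2 -0.29 ± 0.076), whereas ERLIN2 and BCAP31 fell with the inhibitor (log2 -0.17 ± 0.044 and -0.15 ± 0.044). ERLIN1 was called higher with siATF4-3 (log2 0.21 ± 0.073), but not without TM siCtrl replicate 2 or TM siATF4-3 replicate 2 or 3 (adjusted p 0.0522 to 0.0572). BCAP31 and TMUB2 were called lower with siPERK-1 (log2 -0.12 ± 0.044 and -0.19 ± 0.071), and those calls were lost in 7 and 9 of the 35 alternatives, among them the removal of any TM siPERK-1 library for TMUB2 (adjusted p 0.0507 to 0.112) and of TM siCtrl replicate 1 or 3 or TM siPERK-1 replicate 2 or 4 for BCAP31 (adjusted p 0.0825 to 0.149).

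Per kilobase of exon, tunicamycin reordered the set. In TM siCtrl HERPUD1 led with 638 ± 39.0 RPKM (CPM divided by exon length in kilobases), followed by VCP with 212 ± 9.19 RPKM and OS9 with 196 ± 8.21 RPKM (SD, n = 4 each). In DMSO siCtrl VCP led with 152 ± 3.60 RPKM, followed by BCAP31 with 97.8 ± 2.75 RPKM and HERPUD1 with 72.2 ± 7.27 RPKM (SD, n = 4 each). VIMP ranked 4 of the 34 in TM siCtrl and 20 in DMSO siCtrl, SEL1L 8 and 25, and ERLEC1 10 and 24. DERL3 reached 7.97 ± 0.541 RPKM in TM siCtrl, rank 33, and was last in DMSO siCtrl with 1.56 ± 0.535 RPKM.

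**Figure D3:**
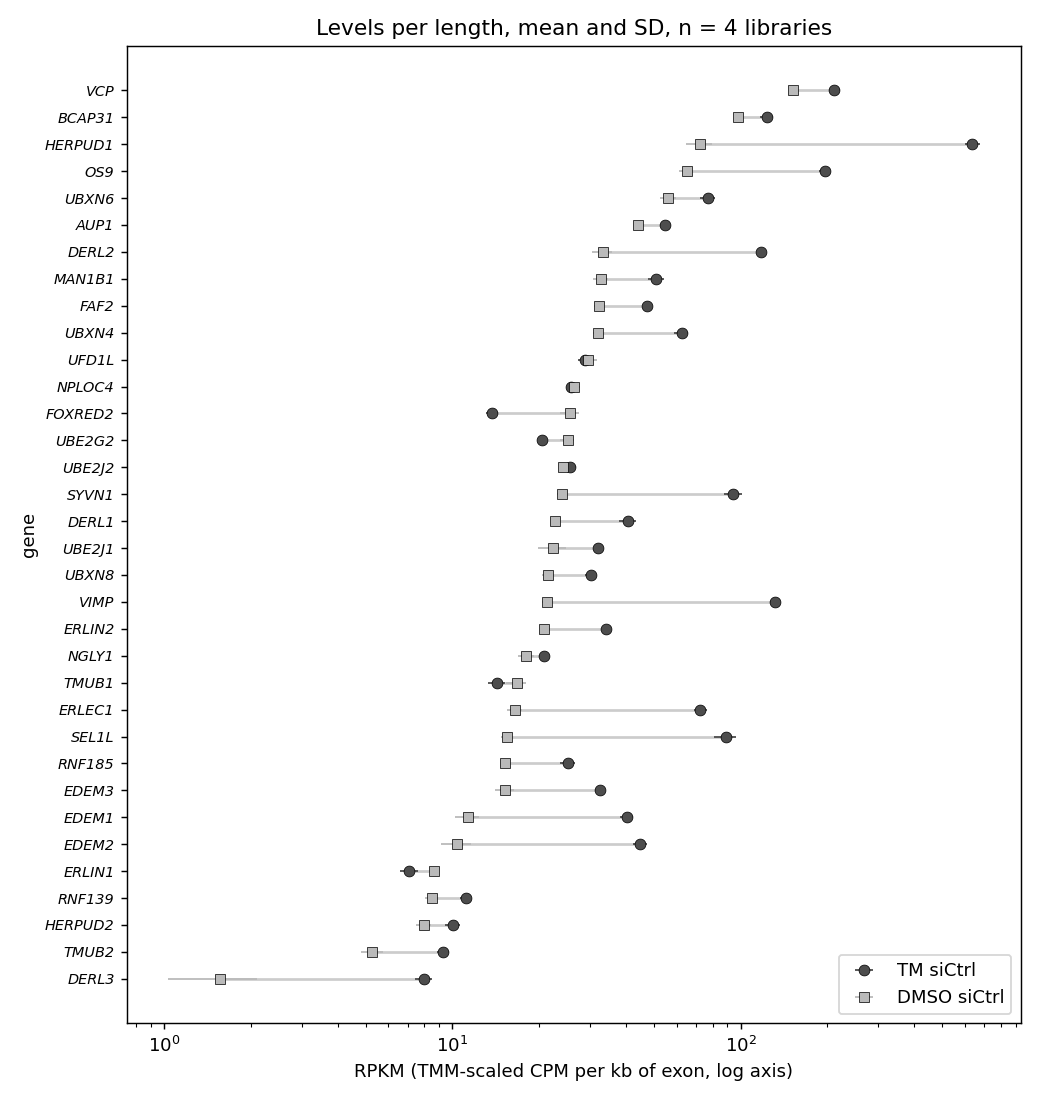
RPKM (x axis, log scale) of the 34 tested ERAD genes in TM siCtrl (circles) and DMSO siCtrl (squares), as mean and SD of 4 libraries, sorted by the level in DMSO siCtrl. HERPUD1 lies at 638 RPKM in TM siCtrl, above VCP at 212 RPKM, while NPLOC4, UFD1L and UBE2J2 have circles and squares side by side.

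The inhibitor was also set directly against the mean of both PERK siRNAs, a contrast without the TM siCtrl libraries. Of the 34 members 20 were higher with the inhibitor and 5 lower (25.8% and 26.1% of all genes, member median 0.16). HERPUD1 (log2 0.64 ± 0.052), EDEM1 (0.62 ± 0.052), VIMP (0.55 ± 0.043), DERL3 (0.43 ± 0.11) and SEL1L (0.42 ± 0.07) were furthest above, with adjusted p from 9.97e-14 to 0.00187. RNF185, NGLY1 and UBXN4 followed, each with a log2 difference of 0.39. The lower members were FOXRED2 (log2 -0.52), TMUB1 (-0.20), AUP1 (-0.18), UBXN8 (-0.17) and UBE2G2 (-0.14). The TMUB1 call was lost without TM PERKi siCtrl replicate 1, 2 or 3 or TM siPERK-3 replicate 4 (adjusted p 0.0583 to 0.124), and the call of FAF2 among the higher members (log2 0.095 ± 0.039) in 10 of 35 alternatives, 7 of them single libraries left out (adjusted p 0.0636 to 0.162). VCP, which rose with the inhibitor and with each PERK siRNA, was not called different (log2 0.042 ± 0.037, 95% interval -0.032 to 0.12, adjusted p = 0.353). The PERK siRNAs themselves differed in few members. TM siPERK-1 stood higher than TM siPERK-3 in RNF185 (log2 0.26 ± 0.058) and ERLIN1 (0.29 ± 0.077), and lower in UBE2G2 (-0.28 ± 0.048) and UBXN6 (-0.20 ± 0.05), where 2.24% of all genes were higher and 2.49% lower. The calls of RNF185, ERLIN1 and UBXN6 were thin. Neither higher call held without TM siPERK-1 replicate 3, and UBXN6 was lost without replicate 2 of either group (adjusted p 0.0543 to 0.0614). The UBE2G2 call was kept in every alternative.

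Lowering ATF4 and lowering PERK gave different ERAD levels under the same tunicamycin dose. Relative to the mean of the PERK siRNAs, the mean of the ATF4 siRNAs had 23 members lower and 5 higher (32.3% and 31.6% of all genes, member median -0.33), including all 10 core members. For HERPUD2, a core member with a log2 difference of -0.11 ± 0.049, the call was lost in 12 of the 35 alternatives (adjusted p 0.0516 to 0.13), 9 of them single libraries of the siPERK and siATF4 groups left out, and for RNF185 (-0.11 ± 0.041) when TM siPERK-1 replicate 3 was removed (adjusted p 0.068). Among the larger changes, the log2 difference was -2.16 ± 0.11 for DERL3, -1.73 ± 0.06 for SEL1L, -1.34 ± 0.044 for HERPUD1, -1.04 ± 0.042 for ERLEC1, -0.99 ± 0.045 for EDEM1, -0.75 ± 0.036 for SYVN1 and -0.70 ± 0.03 for VCP, with adjusted p from 9.5e-23 to 1.52e-14. The members higher with the ATF4 siRNAs were NGLY1 (0.43), UBE2G2 (0.37), UBE2J2 (0.35), ERLIN1 (0.29) and AUP1 (0.18). Between the ATF4 oligos, 11 members were higher in TM siATF4-2 than in TM siATF4-3 and none was lower (8.53% and 6.2% of all genes). In the edgeR test at an unadjusted p under 0.05, 1 member, UBXN8, was lower, and it was called so by DESeq2. HERPUD1 (log2 0.72), SEL1L (0.51), ERLEC1 (0.39), EDEM1 (0.34) and VIMP (0.34) differed most. The calls of OS9 and VCP were lost without TM siATF4-3 replicate 3 (adjusted p 0.0564 and 0.0893), and that of VCP also without TM siATF4-2 replicate 1 or 4 or TM siATF4-3 replicate 2. ATF4 itself was higher in TM siATF4-2 than in TM siATF4-3 by 1.06 ± 0.16 on the log2 scale (adjusted p = 6.1e-05), and the part of this in the members' differences was not tested.

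**Figure D4:**
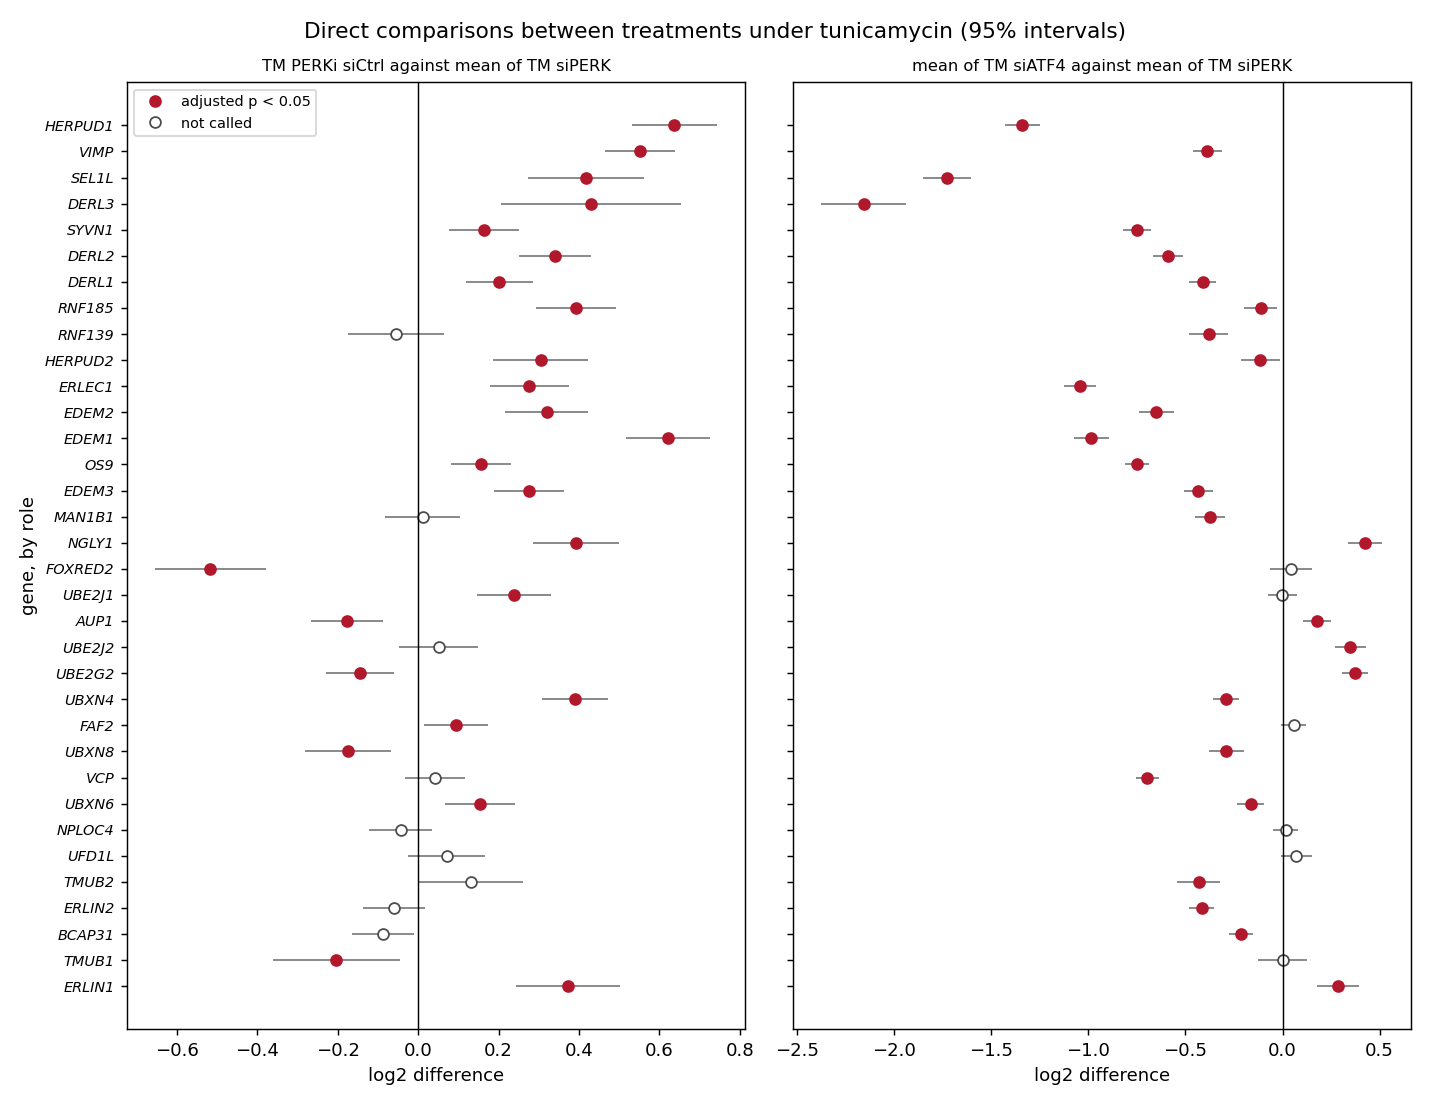
Log2 difference with 95% interval (x axis) of the 34 tested ERAD genes (y axis, by role) between TM PERKi siCtrl and the mean of the siPERK groups (left) and between the mean of the siATF4 groups and the mean of the siPERK groups (right), filled where the adjusted p is under 0.05. On the left VCP sits at 0.042 with an interval that spans 0, and on the right all 10 core genes lie below 0, with DERL3 at -2.16.

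Even with ATF4 mRNA lowered, most members under tunicamycin stayed above DMSO siCtrl. No group received an ATF4 or PERK siRNA without tunicamycin. These contrasts therefore change siRNA and tunicamycin together, and what the siRNAs do to unstressed levels is not known. The mean of the ATF4 siRNA groups was higher than DMSO siCtrl in 26 members and lower in 2 (30.7% and 32% of all genes, member median 0.44). HERPUD1 stood 4.82-fold, VIMP 4.66-fold, DERL3 3.55-fold, SEL1L 3.15-fold and SYVN1 3.14-fold above DMSO siCtrl. MAN1B1, BCAP31 and RNF139, which tunicamycin alone had raised, were not called there (log2 0.087 ± 0.046, 0.055 ± 0.038 and -0.016 ± 0.059), though MAN1B1 was called higher without TM siATF4-2 replicate 2 (adjusted p = 0.029). UBE2G2 was called higher (log2 0.09 ± 0.039, adjusted p = 0.044) and FOXRED2 and ERLIN1 lower (log2 -0.63 ± 0.061 and -0.14 ± 0.061, adjusted p = 4.41e-11 and 0.0446). The UBE2G2 and ERLIN1 calls were each lost in 11 of 35 alternatives (adjusted p 0.0504 to 0.186 and 0.0526 to 0.117). Without DMSO siCtrl replicate 2 or 3, TM siATF4-2 replicate 3 or 4 or TM siATF4-3 replicate 1 or 4, FOXRED2 was the 1 lower member. The mean of the PERK siRNA groups was higher than DMSO siCtrl in 27 members and lower in 3, ERLIN1, UBE2G2 and FOXRED2 (33% and 34.2% of all genes, member median 0.62). There DERL3 stood 15.8-fold, HERPUD1 12.2-fold and SEL1L 10.5-fold above DMSO siCtrl, and VCP 1.95-fold.

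The stress regulators moved beside the members. HSPA5, the ER chaperone BiP, averaged 26492 ± 1539.7 CPM in TM PERKi siCtrl, 15743 ± 1107 in TM siPERK-1, 15936 ± 1708 in TM siPERK-3, 6173 ± 584 in TM siATF4-2 and 4807 ± 189 in TM siATF4-3, against 12078 ± 911 CPM in TM siCtrl and 887 ± 105 CPM in DMSO siCtrl (SD, n = 4 each). XBP1 averaged 323 ± 7.39 CPM in TM PERKi siCtrl, 227 ± 8.46 in TM siPERK-1, 229 ± 4.63 in TM siPERK-3, 185 ± 11.04 in TM siATF4-2 and 163 ± 1.17 in TM siATF4-3, against 274 ± 16.2 CPM in TM siCtrl and 186 ± 9.13 CPM in DMSO siCtrl (SD, n = 4 each). Gene counts do not separate its spliced form. With siATF4-2 and siATF4-3 ATF6 fell by 0.69 and 1.19, ERN1, the gene of IRE1, by 0.72 and 1.44, and XBP1 by 0.57 and 0.75 on the log2 scale. With the PERK siRNAs XBP1, ATF6 and ERN1 also fell, by 0.26 to 0.62, in the groups where HERPUD1, SEL1L, SYVN1, DERL2 and DERL3 rose. With the inhibitor XBP1 rose by 0.24 ± 0.045 and ERN1 by 0.35 ± 0.073, while ATF6 was not called (0.081 ± 0.052). DDIT3, the stress factor CHOP, rose with the inhibitor (log2 1.31 ± 0.14) and fell with siATF4-3 (log2 -0.89 ± 0.15). The part of these regulators in the members' changes was not tested.

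A further list of 62 genes tied to ERAD by textbook role, none of them members, moved in both directions. With tunicamycin 33 of the 62 rose and 16 fell, 53.2% and 25.8% of the list, against 34.3% and 34.7% of all genes. Relative to TM siCtrl, 18 were higher and 9 lower with the inhibitor, 6 and 11 with siPERK-1, 10 and 11 with siPERK-3, 15 and 29 with siATF4-2, and 15 and 35 with siATF4-3. As shares of the list, those called lower were 46.8% with siATF4-2 and 56.5% with siATF4-3, above the 27.2% and 30.7% of all genes. The shares called higher with siPERK-1 (9.68%) and with each ATF4 siRNA (24.2%) and called lower with the inhibitor (14.5%) were under those of all genes. With siPERK-1 17.7% were called lower, near the 13.3% of all genes. With siPERK-3 16.1% were called higher and 17.7% lower, near the 13.1% and 13.7% of all genes. The inhibitor raised 29% of the list and 18.2% of all genes. The largest rises with tunicamycin were of MAN1A1, a Golgi mannosidase (log2 3.49 ± 0.17), DNAJB9, an ER co-chaperone of HSPA5 (3.37 ± 0.067), and CRELD2, an ER stress-induced secretory protein (3.09 ± 0.058). Among the falls were those of INSIG1, which binds the sterol sensor SCAP (-1.10 ± 0.15), and FBXO2, a ligase subunit that binds glycans (-0.69 ± 0.17). MAN1A1 averaged 31.8 ± 5.71 CPM in TM siATF4-2 and 15.5 ± 1.93 CPM in TM siATF4-3, against 48.3 ± 4.28 CPM in TM siCtrl and 4.30 ± 0.689 CPM in DMSO siCtrl (SD, n = 4 each).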

How the data were processed

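RNA-seq was done on 28 LNCaP libraries in 7 groups of 4, from 4 independent experiments per the series' design text, so p-values measure the spread between repeated cultures of 1 cell line. The authors deposited 6 tables of raw counts of reads per gene over exons. The submitters' processing notes name TopHat2 2.1.0, featureCounts 1.5.0-p1, DESeq2 1.10.1 and hg19, with no role for each; annotation and settings: not given in the sources used here. The kit was strand-specific per the labels' protocols, but a strand setting of the counting is not known, which leaves members with an overlapping gene on the opposite strand uncertain. The TM siCtrl columns recur across tables (20 recurring columns, 0 differing values) and were used once. The 1 line without a gene name held 0 counts. Titles name the oligos siPERK-1, siPERK-3, siATF4-2 and siATF4-3, whereas the treatment labels number each pair 1 and 2; titles were followed.

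All 28 libraries entered 1 edgeR 4.0.16 fit (R 4.3.3) with a mean per group, TMM scaling and filterByExpr (minimum count 10, minimum total 15). Contrasts were tested with the robust quasi-likelihood F-test, two-sided, and p-values were adjusted by Benjamini-Hochberg over the 14314 genes of each contrast, with a threshold of 0.05. The standard error was derived from the size of the log2 change and its F statistic, and intervals are 95%. The fit was also run on simulated counts, with the same spread for every gene and no replicate effect. That run does not show how the fit behaves on these data. RPKM was computed from CPM and the exon length in the tables. Alternatives were median-of-ratios and upper-quartile scaling, no filter, only the compared groups, a replicate block, DESeq2 1.42.0, limma 3.58.1 (voom) and each library left out. Values in every library are given for up to 5 called members with the largest absolute change in each contrast with a control group, and for HERPUD1, DERL3, SEL1L and SYVN1. The members and gene lists were chosen with earlier results of these data known. No library was left out of the fit. Some genes outside the member list are not reported here.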

Additional observations from a re-analysis of the deposited data

Results flagged for a closer look

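Among 238 pairs of a member and a group of 4 libraries, 6 held a library whose gap to the nearest other exceeded Dixon's 95% critical value; chance gives about 1 in 20 groups. FOXRED2 had 98.5 CPM in TM siPERK-3 replicate 4, against 72.2 to 75.7 CPM in the other TM siPERK-3 libraries, and 115 CPM in DMSO siCtrl replicate 1, against 133 to 136 CPM in the other DMSO siCtrl libraries. Its log2 change with siPERK-3, 0.20 ± 0.075 (adjusted p = 0.0505 in edgeR's quasi-likelihood test), was called in 12 of 35 alternatives, and remained uncalled without TM siPERK-3 replicate 4. NPLOC4 had 108 CPM in DMSO siCtrl replicate 1, the library that was also low for FOXRED2, against 118 to 119 CPM in the other DMSO siCtrl libraries. DERL2 had 206 CPM in TM PERKi siCtrl replicate 3, against 193 to 194 CPM in the other TM PERKi siCtrl libraries. DERL3 had 20.8 CPM in TM siATF4-3 replicate 4, against 14.9 to 15.6 CPM in the other TM siATF4-3 libraries. EDEM2 had 82.8 CPM in TM siPERK-1 replicate 4, against 87.5 to 88.2 CPM in the other TM siPERK-1 libraries.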

How the results depend on the processing

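Over the member changes in 12 contrasts and 35 alternatives, no called direction was reversed: 14042 values kept their side of the threshold, 149 lost it and 89 passed it. All 27 rises with tunicamycin and all 30 calls of the PERK siRNAs against DMSO siCtrl were kept in every alternative. Members called higher in TM siATF4-3 numbered 5 to 9 with single libraries left out. Between TM siATF4-2 and TM siATF4-3 the members called lower became 1, UBXN8, with median-of-ratios or upper-quartile factors, with the replicate block and with DESeq2, and 0 to 1 with libraries left out, with 1 without TM siATF4-3 replicate 2 or 4. For the ATF4 siRNAs against DMSO siCtrl they became 1 with median-of-ratios factors, no filter, the compared groups alone and DESeq2, and 1 to 2 with libraries left out. In the contrast of the PERK oligos called genes, 321 higher and 356 lower, numbered 392 to 750 with libraries left out (392 without TM siPERK-3 replicate 1, 422 and 450 without TM siPERK-1 replicate 3 and 1), with 0 to 2 members higher and 1 to 2 lower.

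With the replicate number as a block, called genes between the PERK oligos rose to 1195 and members called lower to 4. The block ended no member call and added 17, among them VCP between the PERK oligos, UFD1L and NGLY1 with the inhibitor, EDEM2, OS9, UBXN8, AUP1 and ERLIN2 with siPERK-1, and TMUB2, FOXRED2 and ERLIN2 with siPERK-3. Whether the numbers mark shared experiments is not stated. Deviations of same-numbered libraries correlated at -0.0051 to 0.302 over 84 pairs (median 0.0866, 31 above 0.1). Those of the 252 other pairs had a median of -0.0263, with 1 above 0.1, and each of the 28 libraries correlated best with its own number. The design text names independent experiments without tying them to the numbers. The unblocked fit was reported, and its p-values take no account of such pairing. Low counts limit DERL3 without stress and RNF5 in every library, and a gene-level count cannot separate isoforms or overlapping genes. The causes of lost calls were not tested.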
